A study of Homo sapiens with 6 samples.

Results

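The tubulin family is described here through 10 genes, chosen by symbol: the alpha-tubulin genes TUBA1A, TUBA1B, TUBA1C and TUBA4A, the beta-tubulin genes TUBB, TUBB2A, TUBB2B, TUBB3 and TUBB6, and the gamma-tubulin gene TUBG1. They make up 10 of the 19202 genes in the count table. The genes were picked with their difference between the groups already known, so that difference is given as a description, and the number of members past the threshold used for all genes is printed only beside the share of all genes that passed it. RNA sequencing had been done on sorafenib-resistant MHCC97H cells, labelled SR (3 libraries), and on sorafenib-sensitive MHCC97H control cells (3 libraries). MHCC97H is a human hepatocellular carcinoma line, and sorafenib is a multikinase inhibitor used in advanced liver cancer. The sources used here do not give how resistance was raised, whether drug was present at harvest or whether the resistant cells came from 1 clone. The comparison asks which mRNAs set the resistant cells apart from their sensitive counterparts. Nothing in the labels ties the numbered replicates to separate cultures. Any p-value therefore sets the group difference only against the scatter among these libraries, and that scatter may be technical.

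Alpha- and beta-tubulin pair into the dimers that polymerise into microtubules, the hollow filaments of the mitotic spindle, of intracellular transport and of cell shape. Gamma-tubulin sits in ring complexes that seed new microtubules at centrosomes. Each subunit is encoded by several near-identical genes, called isotypes, whose mix differs between tissues, with TUBB the most widely used beta isotype and TUBB2B and TUBB3 known from neurons. Cells also limit their tubulin mRNA: when free dimers are abundant, the factor TTC5 recognises the start of nascent alpha- and beta-tubulin on the ribosome and the mRNA is degraded by way of SCAPER and the CCR4-NOT deadenylase. After translation, the terminal tyrosine that most alpha-tubulin genes encode can be removed by vasohibins and put back by the ligase TTL.

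The coding starts are shown because, in the alpha and beta members, they encode the stretch read in autoregulation. They also show how alike the members are. Each line gives 30 bases from the start codon, 5′ to 3′, from GENCODE 29 on GRCh38, with the first 4 codons in capitals.
TUBA1A, TUBA1B and TUBA1C: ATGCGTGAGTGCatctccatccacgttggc
TUBA4A: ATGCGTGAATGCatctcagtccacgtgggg
TUBB: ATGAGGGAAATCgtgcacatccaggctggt
TUBB2A: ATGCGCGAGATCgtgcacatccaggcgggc
TUBB2B: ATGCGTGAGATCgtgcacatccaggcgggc
TUBB3: ATGAGGGAGATCgtgcacatccaggccggc
TUBB6: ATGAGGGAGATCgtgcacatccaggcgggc
TUBG1: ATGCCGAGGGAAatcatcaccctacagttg

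The coding ends are the part in which isotypes usually differ most. They are shown for TUBA4A and the beta members with the highest levels or a neuronal role. Each line gives the last 60 coding bases with the stop codon, and the last amino acid codon and the stop are in capitals. TUBA4A ended in GAA, which is not a tyrosine codon. TUBB2A and TUBB2B differed in this stretch only in the capitals.
TUBA4A: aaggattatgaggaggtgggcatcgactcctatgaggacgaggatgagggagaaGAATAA
TUBB: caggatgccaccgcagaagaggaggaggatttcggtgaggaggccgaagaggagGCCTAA
TUBB2A: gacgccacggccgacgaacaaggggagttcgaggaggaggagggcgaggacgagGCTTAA
TUBB2B: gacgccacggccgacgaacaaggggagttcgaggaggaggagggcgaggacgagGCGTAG
TUBB3: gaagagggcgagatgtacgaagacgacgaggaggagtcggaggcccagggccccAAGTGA

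Over whole coding sequences, TUBB2A and TUBB2B were identical at 98.1% of aligned bases, and TUBA1A and TUBA1B at 97.2%. TUBA1C was identical to TUBA1A at 95.9% and to TUBA1B at 96.8%. TUBA4A stood further off, at 84.4 to 85.7% identity with the other alpha members, and TUBB was at 84.7% with both TUBB2A and TUBB2B. An alpha and a beta member shared 53.4 to 55.8%, and TUBG1 shared 51.0 to 54.8% with any other member. This likeness bears on how far a count belongs to its gene. Of all 50-base stretches in the principal transcript, 60.3% in TUBB2A were also present in TUBB2B and 47.3% in TUBB2B were also present in TUBB2A. Stretches found in any other annotated gene made up 65.5% of TUBB2A, 62.7% of TUBA1B, 52.2% of TUBB2B, 41.1% of TUBA1A, 29.9% of TUBG1, 25.1% of TUBA1C, 18.2% of TUBB, 5.25% of TUBA4A and 0.993% of TUBB6. For TUBB there were 4 such other genes, and the pseudogene TUBBP1 shared the most, 16.1% of stretches. No 50-base stretch of TUBB was shared with another tubulin gene listed here. For TUBB3 the share was 89.4%, all of it also in the overlapping gene AC092143.1. Neither the read length nor the treatment of reads with several matches is known from the labels, so counts within the TUBA1 and TUBB2 groups are uncertain between their genes.

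Counts summed to 3745068, 4280175 and 4961907 in resistant replicates 1, 2 and 3, and to 1913469, 5345272 and 3401241 in control replicates 1, 2 and 3. Levels are given as CPM, a normalised read count that sets each gene's count against the library total, here after TMM scaling, which evens out library composition. Between 81.8 and 88.5% of counts from 1 to 20 were even numbers in each library, and whether both mates of a read pair were counted is not stated. Of 10 hepatocyte markers, HNF4A was present at 36.0 to 44.9 CPM in resistant and 38.0 to 41.8 CPM in control libraries, while APOA1 and TTR were at or near 0 in all 6. The hepatocyte markers summed to 88.6 to 115 CPM in resistant and 139 to 159 CPM in control libraries, with ALB, APOB and SERPINA1 lower in resistant cells. Resistant replicate 3 stood apart in the endothelial markers VWF and CDH5, at 26.2 and 19.2 CPM. The other libraries had at most 1.76 and 3.09 CPM of these. PECAM1 did not stand apart, with 41.7 CPM in resistant replicate 3 and 43.2 CPM in control replicate 1. KDR had 42.6 CPM in resistant replicate 3 and 36.3 CPM in control replicate 2. TEK, CLDN5 and ERG were at or under 3.27 CPM in every library. The fibroblast marker COL1A2 also stood apart in resistant replicate 3, at 13.9 CPM, against at most 4.11 CPM in the other libraries. LUM, another fibroblast marker, did not, and was highest in control replicate 3, at 20.2 CPM. The 7 endothelial markers summed to 41.1 to 138 CPM in resistant and 51.6 to 70.1 CPM in control libraries, the 8 fibroblast markers to 11.8 to 41.9 and 14.9 to 39.0 CPM in resistant and control libraries, and the 6 immune markers to 5.93 to 8.70 and 4.52 to 9.09 CPM. The part of those markers in the tubulin values was not tested, and values without resistant replicate 3 are given where a call changed.

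TUBA1C, TUBB and TUBA1B, the members with the highest levels, lay higher in every resistant library than in any control library, and TUBB2B had the largest ratio of means, 4.82. Of the 9 members with enough counts for the fit, 5 were called higher in resistant cells and 0 lower: TUBA1B, TUBA1C, TUBA4A, TUBB and TUBB2B. A call means an adjusted p under 0.05 in edgeR's quasi-likelihood test with Benjamini-Hochberg adjustment over the 10804 genes tested. By that rule 24.1% of all tested genes were called, 11.7% higher and 12.3% lower in resistant cells. For 7 members all resistant libraries lay above all control libraries, as they did for 19.2% of all tested genes. Since the genes were chosen with this contrast known, nothing is read from these counts. In bulk RNA fewer cells of a type and less RNA per cell cannot be told apart.

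**Figure D1:**
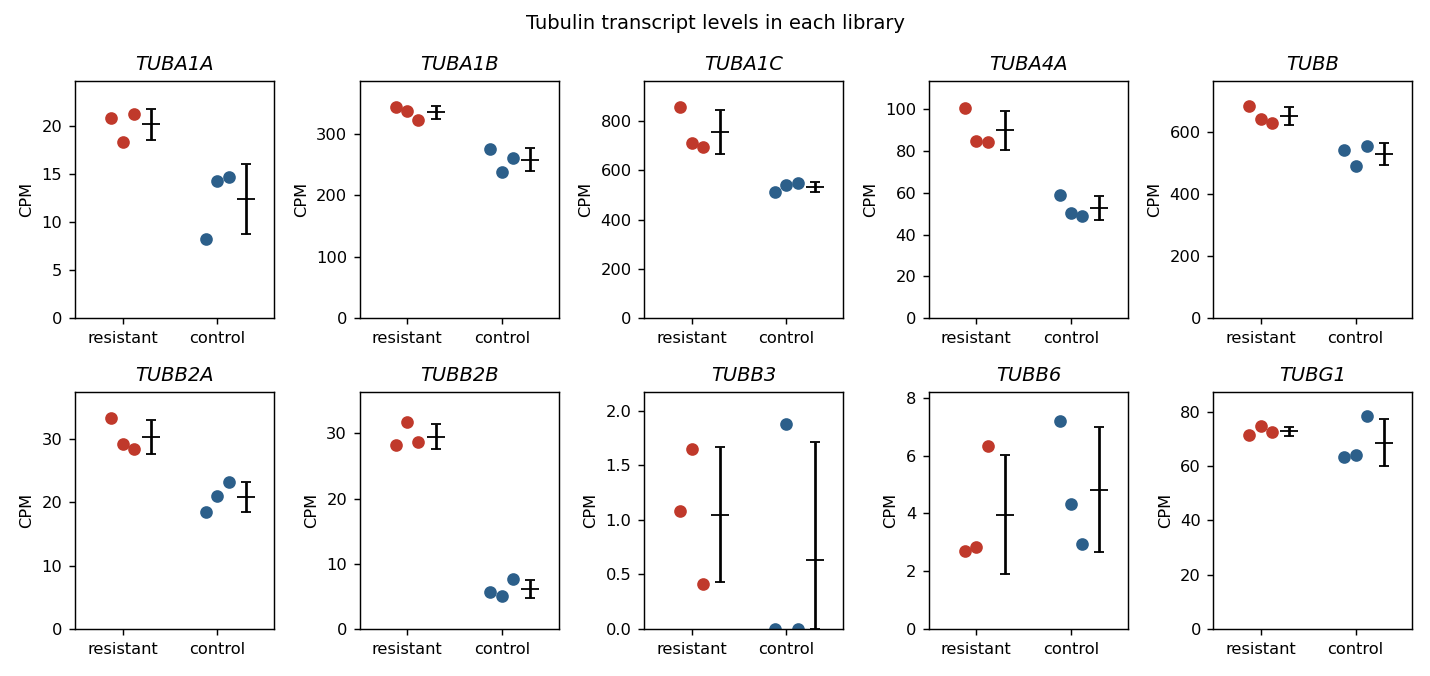
Level of each tubulin member in CPM (vertical axes start at 0 and differ between panels), with 1 point per library, resistant left of control, and the mean ± SD beside the points (n = 3 each; the lower bar stops at 0 for TUBB3). The groups do not overlap in TUBA1A, TUBA1B, TUBA1C, TUBA4A, TUBB, TUBB2A and TUBB2B, and do overlap in TUBB3, TUBB6 and TUBG1.

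TUBA1C encodes the alpha isotype with the highest level here. It had 857, 712 and 695 CPM in resistant libraries, against 510.1, 542 and 547 CPM in control libraries. The lowest resistant library was well above the highest control library, and resistant replicate 1 was the highest of all. The log2 fold change (log2FC, resistant over control) was 0.50 with a standard error (SE) of 0.09. TUBA1B, a widely expressed isotype, had 344, 337 and 323 CPM in resistant libraries, against 275, 238 and 261 CPM in control libraries. Its groups did not overlap either, and its log2FC was 0.38 (SE 0.09).

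TUBA4A is the alpha isotype whose coding end, shown above, does not close with a tyrosine codon. It had 100.4, 84.9 and 84.1 CPM in resistant libraries, against 59.1, 50.5 and 48.7 CPM in control libraries. The groups were clearly apart, and the log2FC of 0.78 (SE 0.14) was the largest among the alpha members. TUBA1A, the main alpha isotype of developing neurons, had 20.8, 18.3 and 21.3 CPM in resistant libraries, against 8.23, 14.3 and 14.7 CPM in control libraries. The groups did not overlap, but control replicate 1 lay far below the other control libraries and rested on 16 counts. The log2FC of TUBA1A was 0.65 (SE 0.27).

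The TUBA1 genes lie together on chromosome 12 in GRCh38. TUBA1B spans chr12:49127782-49131397 and TUBA1A chr12:49184796-49189324 on the minus strand, and TUBA1C spans chr12:49188736-49274603 on the plus strand, so that the annotated spans of TUBA1A and TUBA1C overlap. Summing TUBA1A, TUBA1B and TUBA1C removes the split of reads among these genes, though not reads shared with genes outside the sum or left uncounted. The sum was 1222, 1068 and 1039 CPM in resistant libraries, against 793, 795 and 823 CPM in control libraries, a ratio of means of 1.38. TUBA4A lies on chromosome 2 (chr2:219249711-219278170, minus strand) and overlaps TUBA4B on the other strand, which had a count of 0 in all 6 libraries. The labels do not say whether counting used strand. All 4 alpha members together came to 1199 ± 107 CPM in resistant and 856 ± 13.6 CPM in control cells (SD, n = 3 each).

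TUBB, the main beta isotype of dividing cells (chr6:30720201-30725426, plus strand), had 685, 642 and 628 CPM in resistant libraries, against 541, 489 and 557 CPM in control libraries. No library of one group reached the other group. Its log2FC of 0.30 (SE 0.09) was the smallest among the called members, and without control replicate 2 it was 0.24.

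TUBB2B is a beta isotype known from developing neurons, where its variants disturb cortical layering. It had 28.2, 31.7 and 28.6 CPM in resistant libraries, against 5.66, 5.08 and 7.63 CPM in control libraries. The level was even among the resistant libraries and several-fold below it in each control library. These levels rested on 379 counts over the resistant and 64 over the control libraries. The log2FC was 2.27 (SE 0.28), the largest of the members, and ranged from 2.11 to 2.49 when each library was left out in turn. TUBB2A, its neighbour and near-copy, had 33.3, 29.2 and 28.4 CPM in resistant libraries, against 18.5, 20.9 and 23.2 CPM in control libraries. Its groups were apart by less, and its log2FC was 0.52 (SE 0.21).

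Because these genes share so much sequence, their sum is also given. It removes the split between the pair, but not reads shared with other genes. TUBB2A and TUBB2B together had 61.4, 60.9 and 57.1 CPM in resistant libraries, against 24.2, 26 and 30.8 CPM in control libraries. The ratio of means was 2.22, and the log2FC of the summed counts was 1.14 (SE 0.17). That sum lies between the values of the separate genes.

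The promoters of TUBB2A and TUBB2B are shown because the transcripts are near-copies while their levels differed unequally between the groups. Each line gives the 250 bases before the RefSeq start on GRCh38.p14, 5′ to 3′ on the minus strand, at chr6:3157545-3157794 for TUBB2A and at chr6:3227654-3227903 for TUBB2B. Capitals mark every match on either strand to the CCAAT box, to the GC box with the letters GGGCGG and to the TATA box with the letters TATAAA. None of these matches overlap.
TUBB2A: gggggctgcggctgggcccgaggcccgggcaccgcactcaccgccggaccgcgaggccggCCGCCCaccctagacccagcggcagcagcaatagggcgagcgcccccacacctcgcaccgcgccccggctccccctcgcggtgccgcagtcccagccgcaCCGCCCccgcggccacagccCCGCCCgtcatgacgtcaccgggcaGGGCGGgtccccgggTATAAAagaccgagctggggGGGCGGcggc
TUBB2B: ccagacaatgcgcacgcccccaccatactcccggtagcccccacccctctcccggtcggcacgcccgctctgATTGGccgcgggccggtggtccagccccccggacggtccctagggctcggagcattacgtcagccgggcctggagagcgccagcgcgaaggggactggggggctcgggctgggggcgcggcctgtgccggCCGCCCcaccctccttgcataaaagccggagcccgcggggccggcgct

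TUBB2A held 5 GGGCGG matches, 1 TATAAA match and 0 CCAAT matches, and TUBB2B held 1 GGGCGG, 0 TATAAA and 1 CCAAT. Among 35116 promoter windows of the same length in the RefSeq table, 42.6% held GGGCGG, 32.0% held CCAAT and 10.7% held TATAAA. The GC content was 79.2% in the TUBB2A window and 75.2% in the TUBB2B window. A match is a description of the letters and not a site of binding.

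The low beta members rested on few counts. TUBB3, the beta isotype used as a neuronal marker (chr16:89921392-89938761, plus strand), had 4, 7 and 2 counts in resistant libraries, against 0, 10 and 0 counts in control libraries. The groups overlapped, the gene was too low for the fit, and a count of 0 allows up to 1.54 CPM in control replicate 1 and 0.88 CPM in control replicate 3, for counting error only. Of 10 neuron markers, SYT1 was at 29.9 to 36.0 CPM in resistant and 24.7 to 52.4 CPM in control libraries. The other 9, among them RBFOX3, SNAP25 and STMN2, stayed at or under 2.26 CPM in every library.

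TUBB6, a widely but weakly expressed beta isotype (chr18:12307669-12344320, plus strand), had 2.71, 2.82 and 6.34 CPM in resistant libraries, against 7.20, 4.33 and 2.93 CPM in control libraries. The groups overlapped, and the highest value of all was in control replicate 1. Resistant replicate 3, the library that stood apart in VWF, CDH5 and COL1A2, held the highest resistant value, and a link between these was not tested. The log2FC was -0.20 (SE 0.55), and leaving out 1 library at a time moved it from -0.73 to 0.13.

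TUBG1, the main gamma-tubulin gene (chr17:42609676-42615234, plus strand), had 71.5, 74.8 and 72.6 CPM in resistant libraries, against 63.2, 64.2 and 78.6 CPM in control libraries. Control replicate 3 lay above every resistant library, so the groups overlapped. The log2FC was 0.08 (SE 0.14), the closest to 0 among the members.

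Levels can be compared between genes per kilobase of annotated exon. In resistant cells the order of mean levels in CPM per kilobase was TUBB at 194, TUBA1C at 163, TUBA1B at 93.7, TUBG1 at 30.3, TUBA4A at 22, TUBB2A at 17.5, TUBB2B at 13.5, TUBA1A at 5.89, TUBB6 at 0.961 and TUBB3 at 0.236. By this total exon length, no neighbours in that order overlapped in their range over the 3 libraries. The principal transcripts are shorter by unlike amounts, with 3001 in place of 4631 bases for TUBA1C and 2670 in place of 3359 for TUBB. The order, and the lack of overlap, therefore hold for total exon length only. In control cells the order of the first 6 was the same, with TUBB at 158, TUBA1C at 115, TUBA1B at 72.2, TUBG1 at 28.5, TUBA4A at 12.9 and TUBB2A at 12.1 CPM per kilobase. TUBA1A at 3.63 then stood before TUBB2B at 2.79, followed by TUBB6 at 1.17 and TUBB3 at 0.142. In control cells TUBA4A overlapped with TUBB2A, and TUBA1A with TUBB2B, so neither pair had a clear order there. By this length TUBA1A and TUBB2B were thus the members whose places differed, with TUBB2B above TUBA1A in resistant cells.

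The mix of isotypes was then taken as each gene's share of the length-scaled counts of the alpha or the beta members. Among alpha members, TUBA1C held 57.2 ± 1.86% in resistant and 56.5 ± 2.23% in control cells, and TUBA1B held 33.0 ± 1.91% and 35.4 ± 2.19% in resistant and control cells (SD, n = 3 each). TUBA4A held 7.73 ± 0.153% in resistant and 6.35 ± 0.693% in control cells, without overlap of the libraries. The alpha mix was dominated by the same genes in both groups.

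Among beta members, TUBB2B held 5.41, 6.47 and 5.99% in resistant libraries, against 1.46, 1.43 and 1.90% in control libraries. TUBB held 85.8 ± 0.290% in resistant and 90.7 ± 0.695% in control cells. TUBB2A held 7.75 ± 0.335% in resistant and 6.97 ± 0.770% in control cells. TUBB2A and TUBB2B combined held 13.7 ± 0.280% in resistant and 8.56 ± 0.894% in control cells. Counts were scaled by each gene's exon length before summing, so this share still partly depends on how reads were split between the pair. TUBB6 and TUBB3 held under 1% in both groups. TUBB4B, an abundant beta isotype that is no member, is left out of these shares. With TUBB4B added to the sum, TUBB held 50.7, 50.7 and 54.0% in resistant libraries, against 52.1, 50.7 and 52.8% in control libraries, so its groups overlapped and the gap in the TUBB share was gone. With TUBB4B added, TUBB2B held 3.19, 3.84 and 3.77% in resistant libraries, against 0.833, 0.807 and 1.11% in control libraries, still without overlap.

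**Figure D2:**
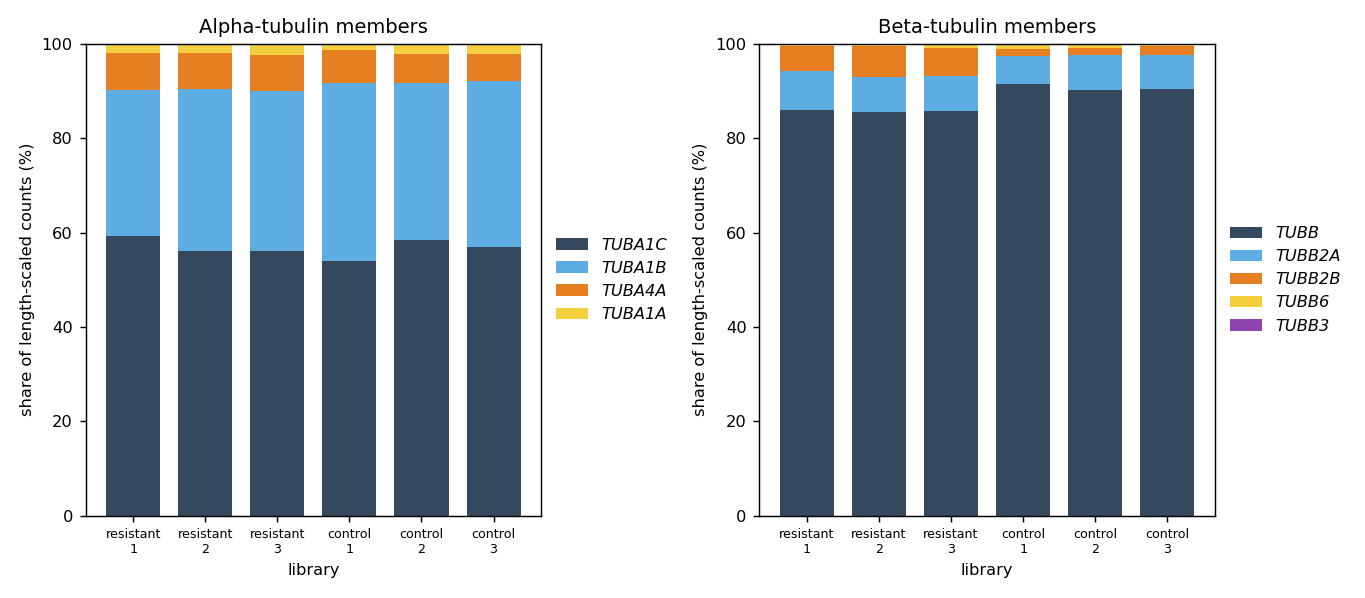
Share of each isotype among the alpha members (left panel) and the beta members (right panel) in percent of length-scaled counts, with 1 stacked bar per library and resistant libraries left of control libraries. The TUBB2B segment takes 5.41 to 6.47% in resistant libraries and 1.43 to 1.90% in control libraries. In the alpha panel the TUBA4A segment takes 7.59 to 7.89% in resistant libraries and 5.76 to 7.11% in control libraries.

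Of 14 other tubulin genes listed, 13 were in the table, 12 had any count and 4 were expressed enough to test. None of the 4 was called in edgeR's quasi-likelihood test, in DESeq2 or in limma-voom, and 0 had an unadjusted p under 0.05 in any of these tools. Over all tested genes edgeR called 24.1%, and 3792 of 10804 had an unadjusted p under 0.05. With only 4 genes, few genes separate these counts from those shares. TUBB4B, a broadly expressed beta isotype also used in cilia, had 349, 324 and 270.1 CPM in resistant libraries, against 281, 265 and 275 CPM in control libraries. Resistant replicate 3 fell within the control range, and edgeR gave an adjusted p of 0.149 at a log2FC of 0.20. Without resistant replicate 3 TUBB4B was called, with an adjusted p of 0.0473 in edgeR (log2FC 0.31), and over all alternatives its adjusted p ran from 0.0473 to 0.422.

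The second gamma-tubulin gene, TUBG2, averaged 7.51 ± 1.86 CPM in resistant and 7.78 ± 3.05 CPM in control cells, with a log2FC of -0.10 (SE 0.40). TUBD1 and TUBE1 encode the delta- and epsilon-tubulins of centrioles. TUBD1 averaged 7.65 ± 2.29 CPM in resistant and 10.9 ± 3.71 CPM in control cells, with a log2FC of -0.47 (SE 0.38), and TUBE1 averaged 34.8 ± 4.04 and 37.5 ± 7.53 CPM in resistant and control cells, with a log2FC of -0.10 (SE 0.19). Leaving out 1 library at a time moved the log2FC of TUBG2 between -0.27 and 0.32, of TUBE1 between -0.26 and 0.08 and of TUBD1 between -0.77 and -0.30. TUBA3C, TUBA3D, TUBA3E, TUBA8, TUBAL3, TUBB1, TUBB4A and TUBB8 had between 2 and 23 counts over the 3 resistant libraries and between 0 and 14 over the 3 control libraries.

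**Figure D3:**
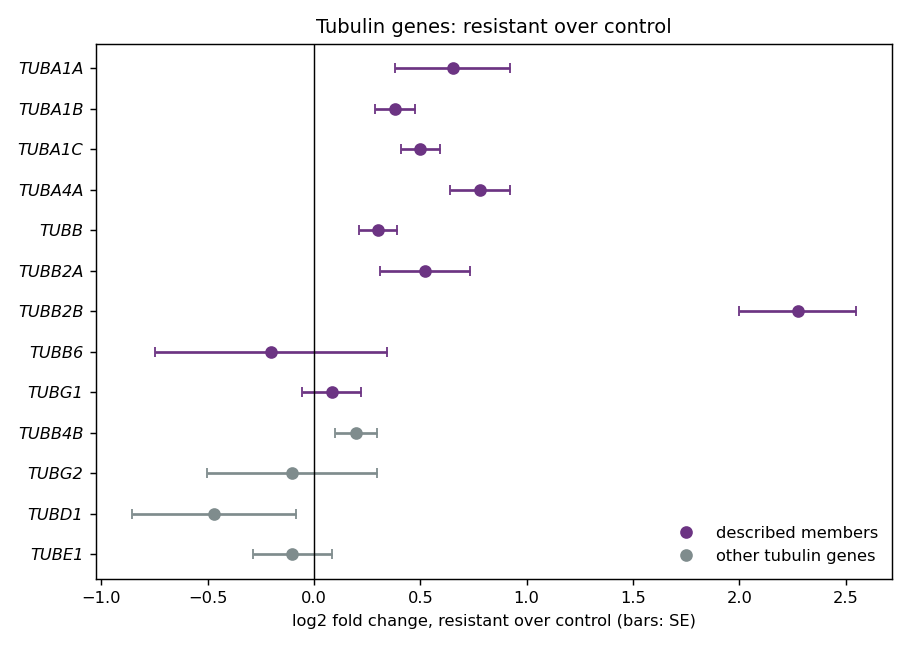
Log2 fold change, resistant over control, of the 9 fitted tubulin members and the 4 other tested tubulin genes, with bars of 1 SE and a line at 0. TUBB2B lies far to the right at 2.27, the alpha members, TUBB and TUBB2A lie between 0.30 and 0.78, and the bars of TUBB6, TUBG1, TUBG2 and TUBE1 cross or touch 0.

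Genes that fold, seed, modify and bind tubulin were taken from 6 lists covering 109 tested genes. Of these, 25 were called (22.9%, near the 24.1% of all tested genes), 9 higher and 16 lower in resistant cells. The lists were written with earlier results of these data known. The counts per list below stand against 11.7% called higher and 12.3% called lower over all tested genes, and with 11 to 25 genes a list they differ from these shares by a few genes.

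Folding genes were the list with the most increases. Of 23 tested members of the CCT chaperonin, prefoldin and the tubulin cofactors, 6 rose and 2 fell, and the median log2FC was 0.21, against -0.01 over all tested genes. The chaperonin subunit CCT2 rose to 468 ± 31.7 CPM in resistant cells, against 338 ± 7.24 CPM in control cells (log2FC 0.47, adjusted p = 0.000157 in edgeR), and CCT7 rose to 468.5 ± 52.0 CPM, against 345 ± 30.4 CPM in control cells (log2FC 0.44). PFDN2, a prefoldin subunit that hands unfolded tubulin to the chaperonin, averaged 133 ± 7.10 CPM in resistant and 95.8 ± 6.05 CPM in control cells, at a log2FC of 0.46 (adjusted p = 0.00272 in edgeR). TBCD, a cofactor that assembles the dimer, fell to 62.8 ± 14.1 CPM in resistant cells, against 96.0 ± 13.6 CPM in control cells (log2FC -0.60, adjusted p = 0.00240 in edgeR). CCT3 was called lower (log2FC -0.23, adjusted p = 0.0491 in edgeR). That call was lost without resistant replicate 2 (adjusted p = 0.119), resistant replicate 3 (0.235), control replicate 1 (0.108) or control replicate 3 (0.290), with no filter on low counts (0.0993) and with a filter of 1 CPM in 3 libraries (0.0809).

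No gene of the autoregulation list was called among 11 tested by edgeR, DESeq2 or limma-voom, and 1, 1 and 2 of them had an unadjusted p under 0.05 in those tools. Over all tested genes edgeR called 24.1%, and 3792 of 10804 had an unadjusted p under 0.05. TTC5, which recognises the start of nascent alpha- and beta-tubulin, averaged 20.03 ± 9.08 CPM in resistant and 21.2 ± 1.71 CPM in control cells. Its log2FC was -0.11 (adjusted p = 0.809 in edgeR). SCAPER, the partner of TTC5, had a log2FC of -0.04 (SE 0.26). The largest log2FC of the list was that of CNOT8, at 0.49 (adjusted p = 0.0801 in edgeR), and its groups overlapped. The median log2FC of the list was 0.05.

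Among 21 tested genes of the gamma-tubulin ring complex and its recruitment, 1 rose and 4 fell, and the median log2FC was -0.18. TUBGCP2, a core subunit that binds gamma-tubulin, rose to 93.7 ± 6.52 CPM in resistant cells, against 66.6 ± 5.76 CPM in control cells (log2FC 0.49, adjusted p = 0.00505 in edgeR). CDK5RAP2, which anchors the complex at centrosomes, fell to 85.1 ± 15.3 CPM, against 131 ± 17.5 CPM in control cells (log2FC -0.61). HAUS1, an augmin subunit, fell by 1.41 on the log2 scale, with 68 counts over the resistant and 139 over the control libraries. TPX2, a spindle assembly factor, fell by 0.29 on the log2 scale (adjusted p = 0.0247 in edgeR), and lost its call without resistant replicate 2 (adjusted p = 0.0759), resistant replicate 3 (0.122), control replicate 1 (0.115) or control replicate 3 (0.103), and with no filter on low counts (0.0515).

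Of 18 tested modifying enzymes, 1 rose and 1 fell, with a median log2FC of -0.21. TTL, the ligase that restores the terminal tyrosine of alpha-tubulin, averaged 155 ± 4.31 CPM in resistant and 124 ± 8.21 CPM in control cells (log2FC 0.32, adjusted p = 0.0279 in edgeR). Its call was lost without resistant replicate 3 (adjusted p = 0.0938), control replicate 1 (0.0607) or control replicate 2 (0.108). SIRT2, a deacetylase that acts on alpha-tubulin among other proteins, averaged 29.3 ± 5.27 CPM in resistant and 46.1 ± 10.2 CPM in control cells (log2FC -0.62, adjusted p = 0.0126 in edgeR). Its call was lost without resistant replicate 1 (adjusted p = 0.0874) or control replicate 1 (0.109).

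Among 25 tested stabilising and end-binding proteins, 1 rose and 6 fell, and the median log2FC was -0.17. MAP1A, a microtubule-associated protein of neurons, fell to 13.95 ± 1.67 CPM in resistant cells, against 37.0 ± 9.81 CPM in control cells (log2FC -1.39, adjusted p = 1.3e-05 in edgeR). MAP7, a recruiter of kinesin-1, fell by 0.83 and TACC3, a spindle protein, by 0.62 on the log2 scale. MAPRE1, the plus-end protein EB1, had a log2FC of 0.31 (adjusted p = 0.0146 in edgeR), with its call lost without resistant replicate 3 (adjusted p = 0.0581) or control replicate 1 (0.0502).

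Of 11 tested depolymerising and severing proteins, 0 rose and 3 fell, with a median log2FC of -0.34. KIF2C, a kinesin that takes microtubules apart at their ends, fell to 35.5 ± 1.88 CPM in resistant cells, against 58.7 ± 7.50 CPM in control cells (log2FC -0.71, adjusted p = 0.000984 in edgeR). FIGNL1, an ATPase related to the severing enzyme fidgetin, fell by 0.73 on the log2 scale. The mitotic kinesin KIF18A had a log2FC of -0.61 (adjusted p = 0.0124 in edgeR), and lost its call without resistant replicate 3 (adjusted p = 0.0766) or control replicate 2 (0.0585). Several of these genes are used in mitosis. Of 8 dividing-cell markers, 7 were called lower in resistant cells, MKI67 and TOP2A among them, against 12.3% of all tested genes. The other marker, CDK1, had 127, 109 and 98.8 CPM in resistant libraries, against 85.9, 98.3 and 89.2 CPM in control libraries. Its log2FC was 0.28, and it was not called. Those 8 markers summed to 1045 to 1093 CPM in resistant and 1485 to 1704 CPM in control libraries, and their part in the tubulin and pathway values was not tested.

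**Figure D4:**
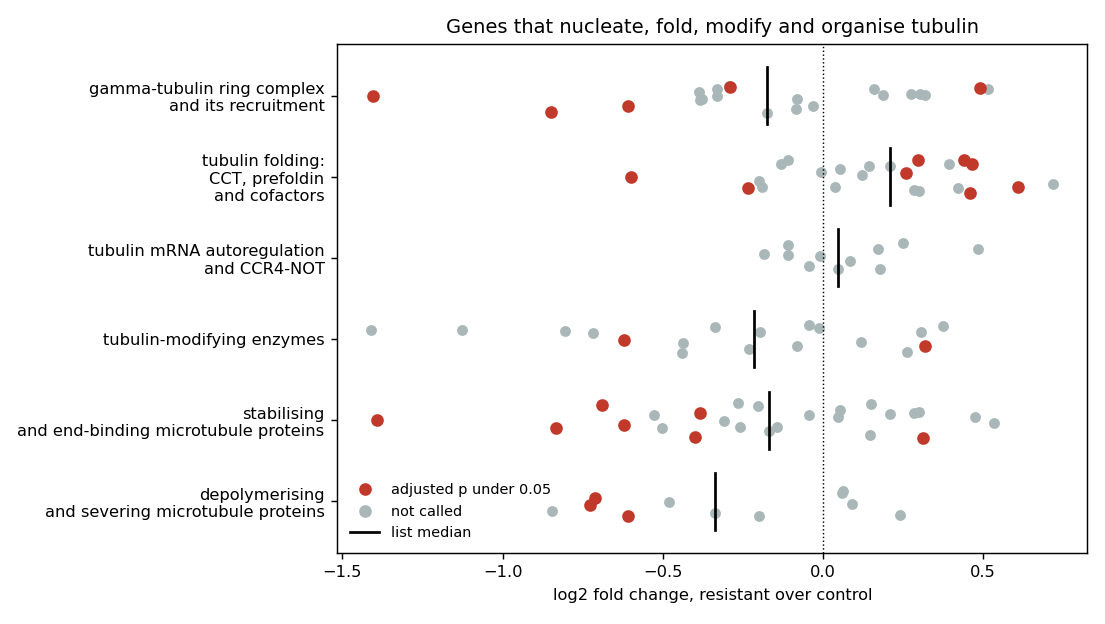
Log2 fold change, resistant over control, of each tested gene in the 6 lists of tubulin partners, with called genes in red, other genes in grey and the list median as a black bar. The folding list has its median to the right of 0 at 0.21, while the depolymerising and severing list has its median at -0.34 and no gene called higher.

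For the members with the highest and the lowest log2FC, the genes with the most similar pattern over the 6 libraries were found by the root mean square difference of mean-centred log2 CPM, among 7013 other genes of at least 20 CPM on average. For TUBB2B these were DKK1 at a difference of 0.261, WNT7B at 0.318 and VASN at 0.328. DKK1 encodes a secreted Wnt antagonist and averaged 327 CPM in resistant and 77.7 CPM in control cells. WNT7B, a Wnt ligand, averaged 39.9 CPM in resistant and 11.6 CPM in control cells, and VASN averaged 86.6 CPM in resistant and 21.2 CPM in control cells. For TUBB6 the nearest genes were SPTLC2 at 0.113, GAPVD1 at 0.249 and TBC1D14 at 0.268. The likeness rests on 6 libraries of 2 groups and is a description.

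The surroundings of the TUBB2A and TUBB2B genes on chromosome 6 held calls in both directions. Of 10 other tested genes within 500 kb, SERPINB9 was called higher (log2FC 0.63, adjusted p = 0.0466 in edgeR), SERPINB1 and SLC22A23 were called lower, and the median log2FC was -0.09. Within 500 kb of the TUBA1 genes, 1 of 19 tested genes was called higher and 3 lower. Around TUBA4A 2 of 14 were higher and 1 lower, and around TUBB 2 of 19 were higher and 1 lower. Over all tested genes 11.7% were called higher and 12.3% lower, so few genes separate these counts from that share.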

How the data were processed

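RNA from 3 resistant and 3 control samples was extracted with Trizol and a column kit, and libraries were made with EasyRNA-seq, per the labels' protocols. Trimmomatic, HISAT2 and Bowtie2 are named, without versions, per the submitters' processing notes. The sources used here do not give the read counter, build, annotation or strand setting. The authors deposited whole-number counts per gene symbol, not normalized, for 19202 genes, and 27 symbols turned into dates were renamed from their Entrez IDs. Counting errors are understated if both mates of a pair were counted, and the floors given cover counting error only.

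In R 4.3.3, edgeR 4.0.16 was used: filterByExpr kept 10804 genes, TMM set the library sizes, and glmQLFit and glmQLFTest (quasi-likelihood) compared the groups with no covariate, with Benjamini-Hochberg adjustment over every tested gene. SE is the size of the log2 fold change divided by the root of the F statistic. A common dispersion of 0.0170 was estimated. The script was also tested on simulated data. The members and the gene lists were chosen with earlier results of these data known. Named genes are the members, the other tubulin genes, up to 3 called genes per list and direction with the smallest p, and the 3 genes most like the highest and lowest member. TTC5, SCAPER, CNOT8 and the marker and neighbouring genes named were chosen after their values were seen. As alternatives, DESeq2 1.42.0 and limma-voom (limma 3.58.1) replaced edgeR; scaling was by RLE, by upper quartile or by library total; 2 other filters, halved counts and summed near-identical genes were tried; and a replicate block, a stricter call at 0.01 and the omission of each library in turn were added to the fit. Gene spans, coding sequences and exon lengths are from GENCODE 29 (GRCh38), where 19133 symbols were found once, and promoters from RefSeq (GRCh38.p14), where all 10 members were matched. Shares were scaled by total exon length. The coding ends of some members are not reported here.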

Additional observations from a re-analysis of the deposited data

How the results depend on the processing

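No direction was reversed for any called result under the 17 alternatives fitted across all genes. The number of members past the threshold was counted under 16 of these, all but the sum of near-identical genes, and was 5 except without control replicate 2, where TUBB dropped out and it was 4. At an adjusted p of 0.01, 800 genes were called higher and 851 lower, and 11 of the tubulin partner genes were called, 4 higher and 7 lower. With near-identical genes summed before the fit, the log2FC was 0.47 for the TUBA1 genes, in place of 0.38 for TUBA1B, and 1.14 for TUBB2A and TUBB2B. Leaving out 1 library at a time gave 1028 to 1107 genes higher, 973 to 1154 lower, 17 to 25 partner genes called, 0 to 1 other tubulin genes called and a TUBB2B log2FC of 2.11 to 2.49. The share of TUBB, resistant minus control, was -4.91 percentage points, against -3.26 without length scaling and -4.21 with the length of the principal transcript, an alternative chosen after seeing the data, and that of TUBB2B was 4.36, against 3.04 and 3.83. With TUBB4B added to the beta genes, also chosen after seeing the data, the difference was -0.0576 points for TUBB and 2.68 for TUBB2B, and the larger sum by itself lowers every share. The cause of these moves was not tested beyond the settings' own construction.

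Samples of the same replicate number did not deviate together (correlations of -0.02, 0.03 and -0.01), so the numbers were not taken as pairs. With a replicate block the adjusted p of CCT3 in edgeR was 0.0740, in place of 0.0491. Few counts limit TUBB3 and TUBB6, and shared sequence limits the split within the TUBA1 and TUBB2 groups.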
